A study of Mus musculus with 6 samples.

Results

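Calcium release at the triad and store-operated calcium entry were followed through 10 genes: Ryr1, Cacna1s, Cacnb1, Jph1, Jph2, Trdn, Jsrp1, Stac3, Stim1 and Orai1. The members were chosen by name, as every probe to which the platform annotation gives one of these symbols, with earlier results of these data known. Of the 45281 probes on the array, 19 met this rule and covered 9 of the 10 genes. No probe carried the symbol Cacna1s, so the pore-forming subunit of the voltage sensor was not analysed here. RNA came from the tibialis anterior, a fast muscle of the lower hindlimb, of male mice aged 8 weeks on a mixed Sv129/Black Swiss background. One group of 3 was wild type. The other 3 carried a nebulin lacking its SH3 domain (Neb∆SH3), and the labels name neither a promoter nor a Cre that would limit this deletion to 1 cell type, nor the number of alleles that carry it. The labels call the 3 samples of a group biological replicates, and each was hybridised to 1 array. Nebulin is a very large protein of the thin filament, and its SH3 domain sits where the filament enters the Z-disc. The question is whether transcript levels in the muscle change when that domain is lost.

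In skeletal muscle, an action potential travels down the transverse tubule, where the voltage sensor (Cacna1s with its partner subunit Cacnb1) opens the ryanodine receptor Ryr1 in the facing membrane of the sarcoplasmic reticulum. Junctophilins hold both membranes together at the triad, triadin (Trdn) and JP-45 (Jsrp1) sit in the release complex, and Stac3 is an adaptor needed for the sensor to act on the receptor. When the store empties, Stim1 in the reticulum membrane senses the loss and opens Orai1, a calcium channel of the surface and tubule membranes.

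These arrays were dim. The median signal intensity was 83.3 to 88.9 per array, against a background of 83.3 to 88.8 with an SD of 3.18 to 3.62, and 4000 to 5844 probes per array lay above background (detection p-value under 0.05, the share of negative control probes at least as bright). Markers of fast muscle were present, with 11 of 13 genes measured, among them Myh4 and Acta1 on all 6 arrays, while 0 of 5 heart markers were measured. Neb itself could not check the labels, because its 1 probe was above background on 0 arrays (detection p-values 0.543 to 0.882). On the first principal component (32.57% of the variance) wild type replicate 2 (10.7) and Neb∆SH3 replicate 1 (12.4) stood apart, while the remaining arrays had scores of -6.64 to -5.09. On the second (23.36%) Neb∆SH3 replicate 3 was at -13.2 and the others between -4.93 and 6.17. Differences of the members without the pair apart on the first component are therefore given beside their values, as are those without single arrays where these moved them most.

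Most triad and calcium entry probes were at or near background. A probe was tested when it was above background on at least 3 of the 6 arrays, which 7 of the 19 member probes were, from 5 genes (Ryr1, Jph2, Orai1, Cacnb1 and Jsrp1). Over the whole array 7.56% of probes met this rule. Another 6 member probes were above background on 1 array only, and 6 on none, as were 71.6% of all probes. Of the probes tested, 3 of Ryr1, 1 of Jph2 and 1 of Orai1 were above background on all 6 arrays, whereas those of Cacnb1 and Jsrp1 passed with exactly 3. For Jph1, Trdn, Stac3 and Stim1 no probe was tested, so their genotype difference was not detectable at this signal.

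**Figure D1:**
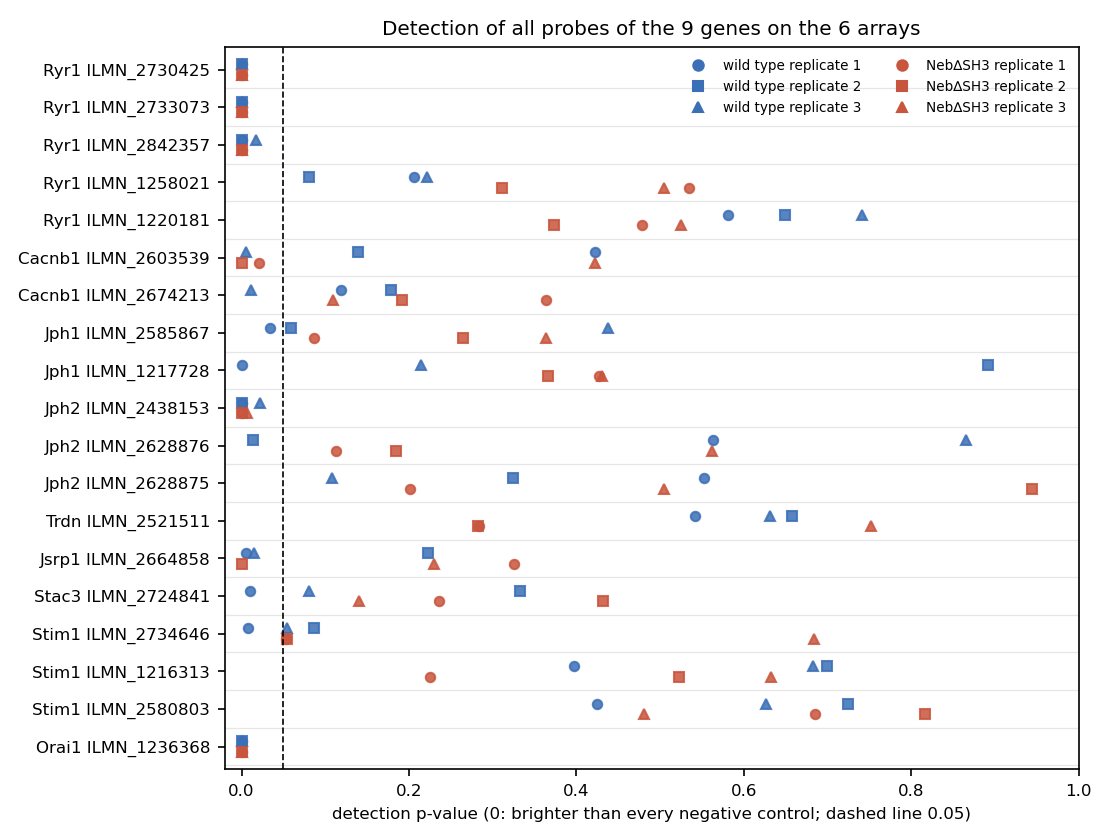
Detection p-value (x axis) of each of the 19 probes (rows) on each of the 6 arrays, in blue for wild type and red for Neb∆SH3, with a marker shape per replicate and a dashed line at 0.05. The first 3 Ryr1 probes, the first Jph2 probe and the Orai1 probe lie left of the line on every array, and the Trdn probe lies right of it on every array.

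Ryr1, the calcium release channel, was the best measured gene of the set. Probe ILMN_2730425 gave signal intensities of 771.8, 828.8 and 448.8 on the wild type arrays (here and below in the order of replicates 1, 2 and 3), and of 715.1, 1081.5 and 408.5 on the Neb∆SH3 arrays. Replicate 3 was the lowest array of both groups, replicate 2 the highest of both, and the groups overlapped. After background correction and quantile normalization, which puts the 6 arrays on 1 distribution, the mean log2 intensity was 9.14 ± 0.47 for wild type and 9.48 ± 0.58 for Neb∆SH3 muscle (SD, n = 3 each). The difference of 0.35 on the log2 scale had a 95% interval of -0.32 to 1.02 (limma, adjusted p = 0.984 over all 3422 probes tested). This interval is the widest among the members. The difference fell to 0.0296 when arrays were scaled to a common median in place of quantile normalization. It also depended on single arrays, at 0.12 without wild type replicate 3, 0.12 without Neb∆SH3 replicate 2, 0.59 without wild type replicate 2 and 0.67 without Neb∆SH3 replicate 3.

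The further probes of Ryr1 were much closer to background. Probe ILMN_2733073 read 117.9, 119.4 and 95.0 in wild type and 118.9, 120.8 and 117.3 in Neb∆SH3. Here 5 arrays lay close together and wild type replicate 3 stood below them. On the normalized scale the levels were 5.21 ± 0.45 and 5.68 ± 0.19 (SD, n = 3 each), a difference of 0.47 (95% interval -0.0282 to 0.96) with the smallest unadjusted p of any member, 0.0621 by limma (adjusted p = 0.984). Without wild type replicate 3 it was 0.22, and without wild type replicate 2 it was 0.66. Probe ILMN_2842357 read 99.9, 99.6 and 91.4 in wild type and 109.0, 98.5 and 105.6 in Neb∆SH3, so that Neb∆SH3 replicate 2 fell among the wild type arrays. Its difference was 0.41 (-0.0502 to 0.87), and it was 0.23 without Neb∆SH3 replicate 1 and 0.60 without Neb∆SH3 replicate 2. Wild type replicate 3 was thus the lowest wild type array on all 3 probes. The remaining Ryr1 probes, ILMN_1220181, which the annotation assigns to the same RefSeq transcript as the 3 measured ones, and ILMN_1258021, assigned to a cDNA clone, were above background on 0 arrays, with signals of 81.7 to 89.2. Without wild type replicate 2 and Neb∆SH3 replicate 1, the differences of the 3 measured probes were 0.49, 0.57 and 0.34.

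Junctophilin 2 was the one tested member whose groups did not overlap on the normalized scale. Jph2 probe ILMN_2438153 read 97.4, 93.3 and 91.1 in wild type and 99.4, 99.5 and 99.3 in Neb∆SH3. All Neb∆SH3 arrays were above all wild type arrays, on the signal and on the normalized scale. Counted in background SDs above the background of each array, the groups overlapped. The probe stood at 3.23, 3.16 and 2.17 in wild type and at 4.11, 4.34 and 2.91 in Neb∆SH3. The background of Neb∆SH3 replicate 3 was 88.8, against 83.3 to 86.3 on the wild type arrays. Among all probes tested the groups did not overlap for 9.06%, and for 3.24% with Neb∆SH3 higher. The normalized level was 4.59 ± 0.0830 in wild type and 4.85 ± 0.14 in Neb∆SH3 (SD, n = 3 each). The difference of 0.26 (95% interval -0.0847 to 0.60, limma adjusted p = 0.984) did not pass the test, and it stayed between 0.18 and 0.31 with each array left out. It was 0.21 without the pair of arrays that stood apart. Without background correction it was 0.0737, since the background then makes up most of the signal of a dim probe. The other Jph2 probes did not measure the transcript: ILMN_2628876 was above background on wild type replicate 2 alone, and ILMN_2628875 on 0 arrays. Junctophilin 1, the form found mainly in skeletal muscle, had probes ILMN_2585867 and ILMN_1217728, which were above background on wild type replicate 1 alone, with signals of 84.2 to 92.3 and 79.4 to 96.8.

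Of the voltage sensor and its adaptor, Cacnb1, the β subunit that brings the channel to the tubule, was the gene measured. Probe ILMN_2603539 read 87.1, 86.8 and 94.1 in wild type and 92.8, 97.0 and 89.3 in Neb∆SH3. It was above background on wild type replicate 3 and on Neb∆SH3 replicates 1 and 2, and the groups overlapped. The difference was 0.0831 (95% interval -0.33 to 0.50), and its sign turned without wild type replicate 1 (-0.0097) or without Neb∆SH3 replicate 2 (-0.0195). It rose to 0.22 without wild type replicate 3 and to 0.22 without Neb∆SH3 replicate 3, and was 0.0050 without the arrays that stood apart. The second Cacnb1 probe, ILMN_2674213, was above background on wild type replicate 3 alone, with signals of 86.3 to 93.1. Stac3 probe ILMN_2724841 read 94.4, 84.7 and 88.7 in wild type and 87.6, 85.1 and 92.5 in Neb∆SH3, and only wild type replicate 1 was above background. Both groups overlapped here, and no fold is given for a probe so close to background.

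Partners of the release channel were dim. Jsrp1 probe ILMN_2664858, for a membrane protein that binds both the voltage sensor and calsequestrin, read 95.7, 85.8 and 91.7 in wild type and 86.7, 106.1 and 91.2 in Neb∆SH3. Neb∆SH3 replicate 2 alone was above background in its group, and it was the highest of the 6 arrays. The difference of 0.0633 (95% interval -0.43 to 0.56) became -0.20 without that array and -0.0247 without wild type replicate 2, and was 0.11 without the arrays that stood apart. Trdn, which anchors calsequestrin beside the channel, had 1 probe (ILMN_2521511), with signals of 81.9 to 87.1 and detection p-values of 0.282 to 0.752.

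Orai1, the entry channel, was above background on every array. Probe ILMN_1236368 read 122.1, 111.6 and 122.6 in wild type and 107.1, 160.5 and 133.9 in Neb∆SH3. Neb∆SH3 replicates 2 and 3 were the highest arrays and Neb∆SH3 replicate 1 was the lowest by signal, so the groups overlapped. The normalized level was 5.53 ± 0.22 in wild type and 5.96 ± 0.47 in Neb∆SH3 (SD, n = 3 each), a difference of 0.42 (95% interval -0.0958 to 0.94, limma adjusted p = 0.984). It was 0.26 without Neb∆SH3 replicate 2, 0.69 without Neb∆SH3 replicate 1 and 0.62 without the arrays that stood apart. The unadjusted limma p was then 0.00459 without Neb∆SH3 replicate 1, with an adjusted p of 0.980. Its sensor partner Stim1 was not measured. Probe ILMN_2734646 read 95.2, 87.6 and 89.4 in wild type and 90.9, 90.3 and 87.2 in Neb∆SH3, with wild type replicate 1 alone above background, and ILMN_1216313 and ILMN_2580803 were above background on 0 arrays.

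**Figure D2:**
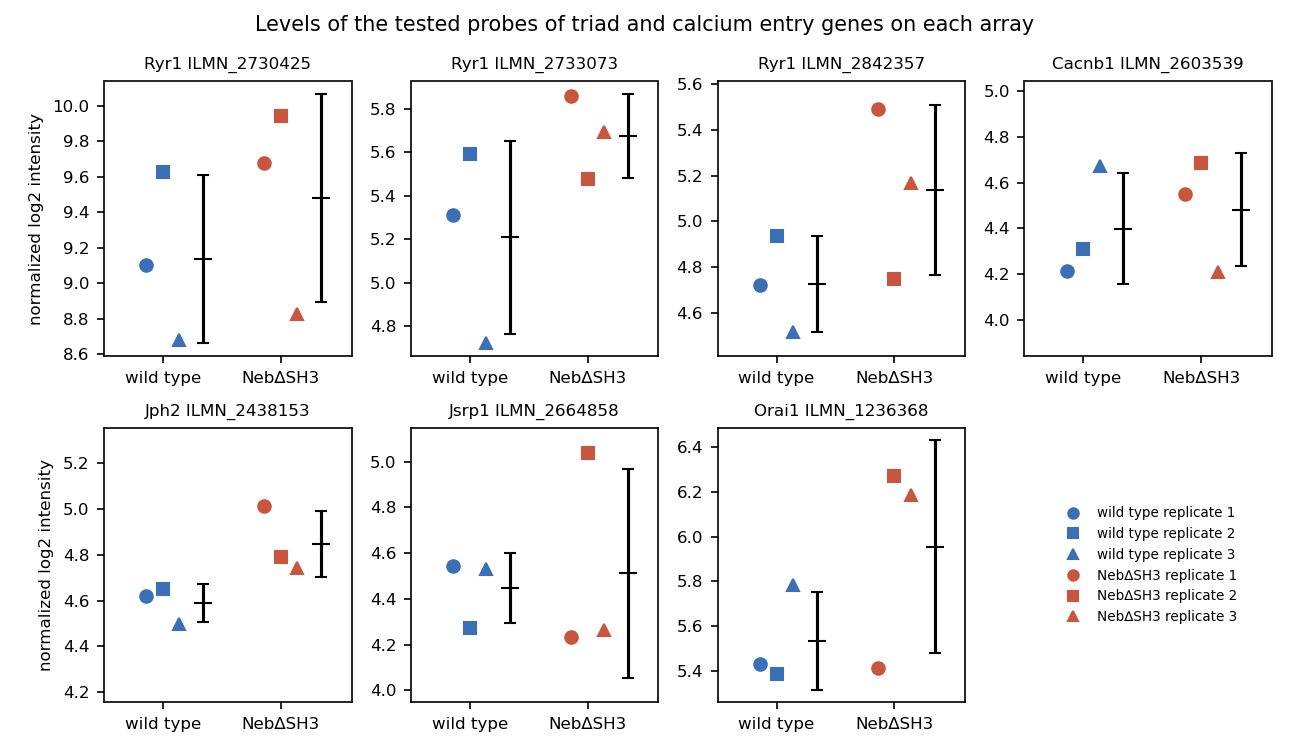
Normalized log2 intensity (y axis, each panel with its own range) of the 7 tested member probes on each array, with wild type in blue and Neb∆SH3 in red, a marker shape per replicate, and the mean ± SD (n = 3) in black. The groups overlap for every probe except Jph2, and wild type replicate 3 is the lowest wild type array for all 3 Ryr1 probes.

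For 6 member probes the wild type group had 1 array above background and the Neb∆SH3 group had 0: the second probe of Cacnb1, both of Jph1, ILMN_2628876 of Jph2, and those of Stac3 and Stim1 (ILMN_2734646). Set against the dimmest level still above background, the wild type mean was lower than that bound for 5 of them, and for Stim1 the bound came to at least 1.00-fold, so no difference was measurable. Wild type replicate 1, with 5844 probes above background, had the most of any array, and it was the array that was above background for 4 of these 6 probes.

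None of the tested probes of calcium release and entry genes passed the test. The mean was higher in Neb∆SH3 for 7 of the 7 (3 of them from Ryr1), with a median log2 difference of 0.35, while 43.9% of all tested probes were higher and their median was -0.0288. The share of all tested probes that were higher was 30.3% with median scaling and 49.7% with cyclic loess normalization. In each, 7 of the 7 member probes were higher. Because a probe enters by being bright on at least 3 arrays, the direction of these 7 does not speak for the 12 that were left out, of which 4 had a higher and 8 a lower mean, all near background. Without the filter, 50.2% of all probes had a higher mean. The number of probes past an adjusted p of 0.05 was 0 among the members and 0 of 3422 in all (0.00%, limma with Benjamini-Hochberg adjustment). At an unadjusted p under 0.05 it was 0 of 7 members, beside 147 probes or 4.30% in all. This count was 1 or 2 in 6 of the 19 alternatives: Jph2 with no filter on dim probes, Ryr1 or Orai1 with 1 array left out (2 without wild type replicate 2, and 1 without each Neb∆SH3 replicate), and both genes without the arrays that stood apart. The limma adjusted p was 0.736 or above each time. The median 95% half-width of the members was 0.49, against 0.40 for all probes tested, and their median residual SD was 0.34 against 0.21. For 6 of the 7 the interval lay within 1 log2 unit of 0, the exception being Ryr1 probe ILMN_2730425. Because values were taken to log2 after 16 units were added to the corrected signal, the folds of dim probes such as Jph2, Cacnb1 and Jsrp1 are understated. With no background correction at all, the 7 differences ranged from 0.0109 (Jsrp1) to 0.31 (Ryr1 probe ILMN_2730425), and on the authors' deposited values from 0.0094 to 0.33 for the same probes.

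**Figure D3:**
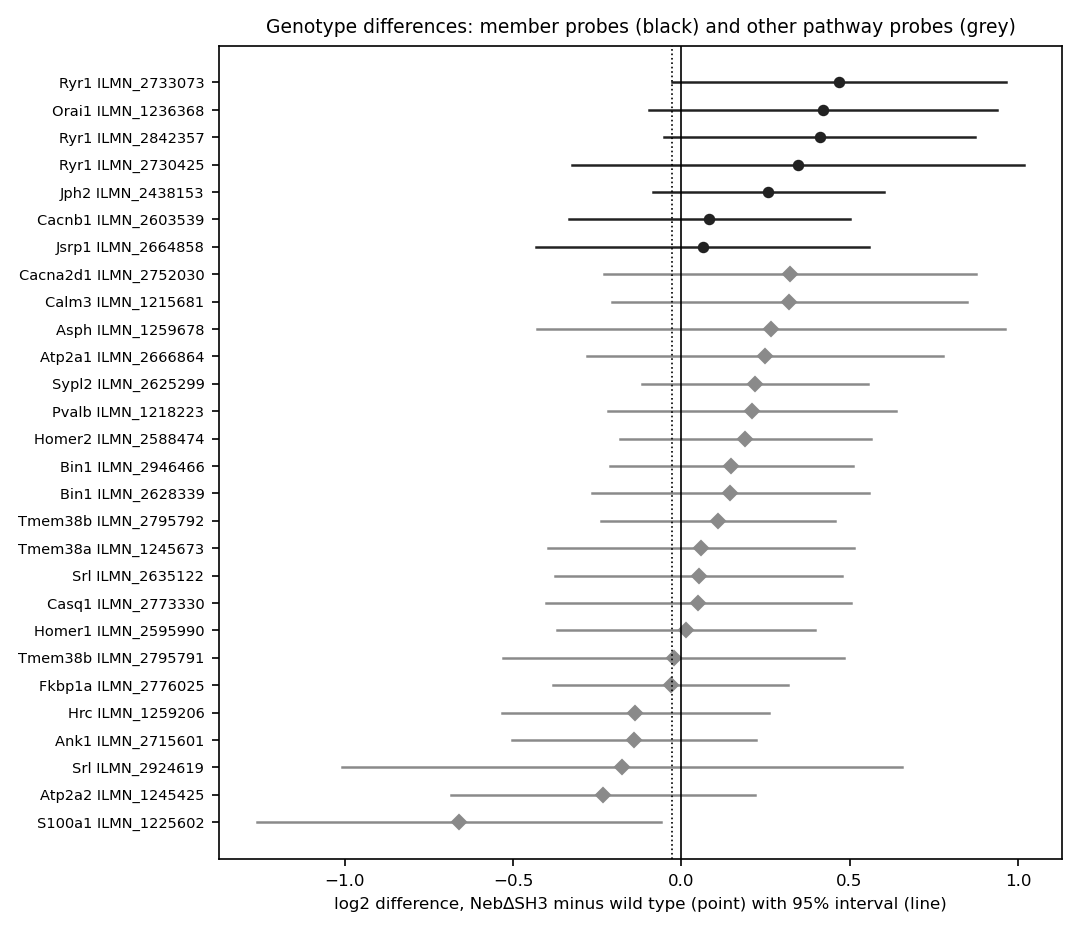
Log2 difference, Neb∆SH3 minus wild type (x axis), with its 95% interval, for the 7 tested probes of the triad and entry genes (black circles) and the 21 tested probes of other calcium handling genes (grey diamonds); the dotted line is the median of all probes tested, -0.0288. All black intervals include 0, and S100a1 is the 1 grey interval that does not.

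Other genes of calcium handling were read from a list of 60 further genes, of which 52 had a probe and 18 were tested, with 21 probes. Among these probes 14 were higher and 7 lower in Neb∆SH3, with a median of 0.0585. The groups did not overlap for 2 of the 21, beside 9.06% of all tested probes. By limma 0 passed an adjusted p of 0.05, and 1 of the 21 had an unadjusted p under 0.05, beside 4.30% of all tested probes. That probe was of S100a1, a calcium-binding protein that modulates the release channel. Its signal was 198.3, 121.8 and 115.8 in wild type and 110.8, 108.4 and 106.4 in Neb∆SH3, with wild type replicate 1 far above the rest and no overlap between groups. The log2 difference was -0.66 (95% interval -1.26 to -0.0603, limma adjusted p = 0.984), and -0.31 without wild type replicate 1. Atp2a2, the slow-type calcium pump, was at -0.23, Ank1, whose small muscle form anchors the reticulum, at -0.14, and Hrc, a calcium-binding protein of the reticulum lumen, at -0.14. On the higher side Cacna2d1, the auxiliary subunit of the voltage sensor, was at 0.32 (-0.23 to 0.88) and Calm3, a calmodulin gene, at 0.32 (-0.21 to 0.85). Sypl2, a synaptophysin-like protein of the triad membrane, was at 0.22 (-0.12 to 0.56), with groups that did not overlap on the normalized scale, and Homer2, a scaffold, at 0.19. Single arrays moved most of these values: Atp2a2 was at -0.0735 without Neb∆SH3 replicate 1 and -0.40 without wild type replicate 2, Ank1 at -0.0734 without wild type replicate 2, and Hrc at -0.0193 without wild type replicate 3. Homer2 was at 0.0515 without Neb∆SH3 replicate 1, and Sypl2 at 0.14 without wild type replicate 1. Calm3 was at 0.0412 without Neb∆SH3 replicate 3, and Cacna2d1 at 0.0853 without Neb∆SH3 replicate 2. Casq1, the calcium buffer of the reticulum, was at 0.0508 and Atp2a1, the fast-type pump, at 0.25, each with an interval that included 0. The list held the symbol Sarf, which no probe carried, and not Saraf, so the counts above leave Saraf out. Saraf probe ILMN_1258965 was at -0.35 (95% interval -0.75 to 0.04, limma adjusted p = 0.984). Its unadjusted limma p of 0.0734 was smaller than those of Atp2a2, Ank1 and Hrc.

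Paralogs of the members were at or near background. Probes of Stim2, Orai2, Orai3, Stac and Stac2 were above background on 0 arrays, and those of Ryr2, Ryr3, Jph3 and Jph4 on at most 1. Probes differ in how well they bind, so a dim probe does not give the abundance of its transcript.

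The measured members did not vary as 1 block across the 6 arrays. The Jph2 probe had Pearson r of 0.83 and 0.87 with the Ryr1 probes ILMN_2733073 and ILMN_2842357, and 0.63 with ILMN_2730425. This is a description over 6 arrays that share their normalization. Orai1 had r of -0.18 to -0.0657 with the Ryr1 probes. Probes of 1 gene did not all vary together either. Ryr1 probe ILMN_2730425 had r of 0.57 with ILMN_2733073 and 0.31 with ILMN_2842357, and these latter probes had 0.87 with each other. The genes whose pattern over the 6 arrays was most like that of Ryr1 probe ILMN_2730425 were Ptp4a3 (r = 0.99), Pcyox1 (0.96) and Pop7 (0.96). For Ryr1 probe ILMN_2733073, the member of largest difference, they were Zbtb17 (0.96), Fam53a (0.96) and Supt6 (0.95). These are the highest r among tested probes with a symbol that is not a member's, over few arrays, and are given as a description.

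In whole muscle, fewer cells of a type and less RNA per cell cannot be told apart, so markers of other cells are given beside the members. Normalized levels were summed on the linear scale, with the brightest probe of each gene. The sum of the 4 measured fibroblast markers of 7 was 162.0 to 326.5 in wild type and 327.4 to 473.5 in Neb∆SH3. The brightest of them, Sparc, had groups that overlapped, and the summed Dcn probe differed by -0.0226. Of the 7 fibroblast probes tested 6 were higher and 1 lower in Neb∆SH3. The sum of the 3 measured erythrocyte markers of 6 was 275 to 631 and 636 to 672, with 8 probes higher and 0 lower. The sums of the 11 fast muscle markers overlapped, at 11130 to 14390 and 13240 to 15350. Pvalb, the brightest of them, made up most of these sums, with mean log2 levels of 12.8 and 13.0. Its normalized level was the same on all 3 Neb∆SH3 arrays (SD 0). Of the 15 fast muscle probes 8 were higher and 7 lower in Neb∆SH3. Smooth muscle had 1 of 4 markers measured (72.3 to 147 and 106 to 154) and macrophages 1 of 4 (28.0 to 45.8 and 21.3 to 52.1). Slow fibres had 2 of 6 (115 to 219 and 129 to 171), while adipocyte and nerve markers had 0 of 4 each. From the endothelium list 2 of 5 were measured, Pecam1 and Rgs5, with sums of 50.8 to 62.1 and 42.6 to 48.9. Rgs5 was the brighter, with mean log2 levels of 5.04 and 4.65, against 4.46 and 4.31 for Pecam1. Pecam1 had a detection p under 0.05 on all 3 wild type arrays but on 0 Neb∆SH3 arrays. Cdh5, Kdr and Tek were not tested, so these sums do not show a change of endothelium. The part of the markers of all these lists in the values of the members was not tested.

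**Figure D4:**
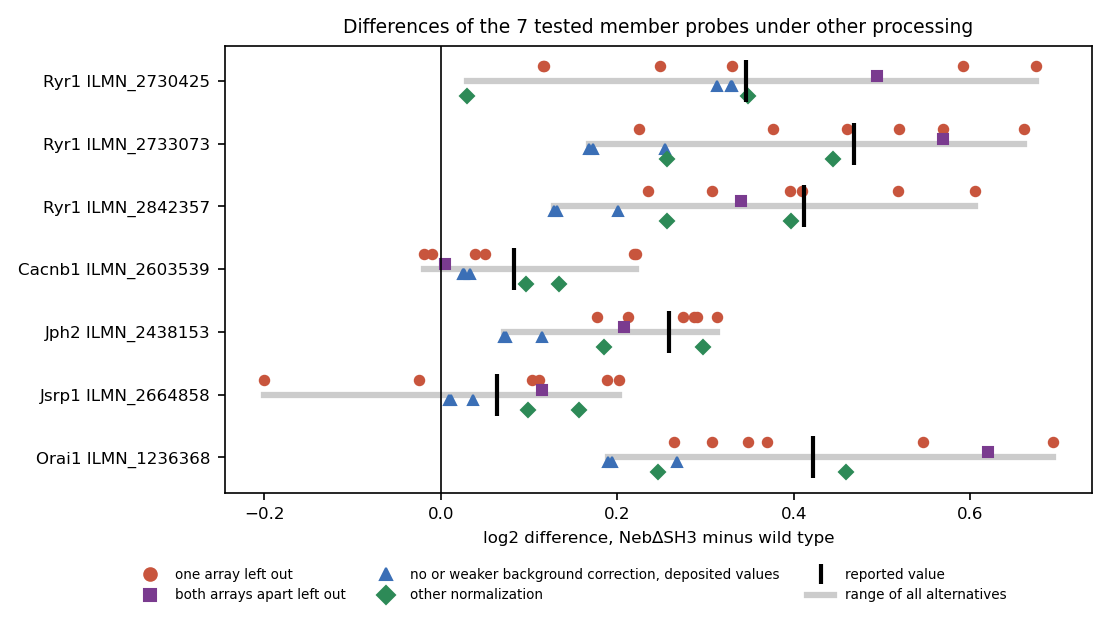
Log2 difference, Neb∆SH3 minus wild type (x axis), of the 7 tested member probes under other processing: single arrays left out (red circles), both arrays that stood apart left out (purple squares), no or weaker background correction and the deposited values (blue triangles) and other normalizations (green diamonds), with the reported value as a black bar and the range in grey. Ryr1, Jph2 and Orai1 stay above 0 throughout, and Cacnb1 and Jsrp1 cross it with single arrays left out.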

How the data were processed

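Biotin-labelled cRNA from Trizol-extracted tibialis anterior RNA was hybridised to Illumina bead arrays, per the labels' protocols. The non-normalized table that the authors deposited holds the average signal intensity of every probe on every array, per the file headers (45281 probes, 6 arrays), with its detection p-value. A second deposited table gives the authors' processed values, which behave as log2 values (column medians 6.10, ranks equal to those of the signals); the submitters' processing notes name lumi, and whether the scale is plain log2 or variance-stabilized is not given in the sources used here.

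Intensities were background-corrected by normexp as limma fits it from the detection p-values (offset 16; 1 step in these p-values matches 936 negative controls), followed by log2 and quantile normalization. A probe was tested, on its own, where 3 or more arrays of the 6 had a detection p under 0.05 (limma 3.58.1, R 4.3.3, lmFit and eBayes, two-sided, no covariate, Benjamini-Hochberg over 3422 probes). Symbols came from the platform annotation (34885 probes with 1 symbol, 18 with several, 10378 with none), and 34807 matched RefSeq by Entrez number. Across tested probes, arrays of 1 group correlated at a median of 0.93 and arrays of different groups at 0.94. The path was tested on simulated data.

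The members and the lists were chosen with earlier results of these data known. Pathway genes named are the 4 higher and 4 lower of smallest unadjusted p in the list, with the closest partners and paralogs of the members. Saraf, which the list did not hold, is given beside them. Alternatives covered background, normalization, deposited values, filters, probes per gene, a replicate block, array weights, variance model and arrays left out. Signal over background and the number of arrays limit the precision. Probe sequences and protein sequences were not used here.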

Additional observations from a re-analysis of the deposited data

How the results depend on the processing

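In all 19 alternatives, 0 probes, 0 member probes and 0 pathway genes passed an adjusted p of 0.05 by limma, with 36 to 1895 probes at an unadjusted p under 0.05 (147 as reported), among them 1 or 2 member probes in 6 alternatives (0 as reported); these extremes come from the strictest filter (1141 probes tested) and from no filter (45281 tested). The median difference of the tested members (0.35) was 0.13 without background correction, 0.20 with an offset of 50, 0.19 with median scaling and 0.13 with the deposited values, and between 0.22 and 0.35 when 1 array at a time was left out. All tested members were higher in 16 of 19 alternatives. Of 127 single values of members 4 turned sign: Cacnb1 to -0.0097 (wild type replicate 1 left out) and -0.0195 (Neb∆SH3 replicate 2 left out), and Jsrp1 to -0.0247 (wild type replicate 2 left out) and -0.20 (Neb∆SH3 replicate 2 left out). Of 150 values of the 4 higher and 4 lower pathway genes 0 did. Deviations of same-numbered arrays from their group means correlated at -0.22, -0.18 and 0.09. As such deviations sum to 0 within a group of 3, these values cannot tell whether same-numbered arrays share more than a number. With the replicate block 0 probes passed by limma (117 at an unadjusted p under 0.05) and the members' median stayed at 0.35. A block for the slide was not run, since neither labels nor headers name slides. Under the strictest filter (detection p under 0.01 on every array) 3 member probes were left (2 of Ryr1, 1 of Orai1).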

Other observations

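The order of the arrays for Ryr1 probe ILMN_2730425 depended on the normalization. By signal intensity, wild type replicate 1 (771.8) was above Neb∆SH3 replicate 1 (715.1), while after background correction and quantile normalization it was below it (log2 9.10 against 9.68). The mean signal was 683 ± 205 in wild type and 735 ± 337 in Neb∆SH3 (SD, n = 3 each).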
